A study of Homo sapiens with 6 samples.

Results

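The zinc finger clusters of distal 19q13 are 2 windows of chromosome 19 of the human genome (hg38), a proximal one from 43.7 to 44.7 Mb and a distal one from 52 to 58.61 Mb. Their members are the H3K9me3 peaks whose midpoint lies in a window, taken from each of 3 deposited peak lists by position alone, with no measured value. The members numbered 228 of 14087 peaks on chromosomes 1 to 22 and X in cells with PURPL guide 1, 160 of 11721 in cells with PURPL guide 2 and 255 of 22627 in cells with the control guide. At the start of the distal window the nearest peak midpoint inside lay 34.6 kb from the edge with guide 1, 0.934 kb with guide 2 and 18.3 kb in the control. The nearest midpoint outside lay 5.80, 6.13 and 4.82 kb away. In the control 1 peak crossed an edge of the distal window with its midpoint outside, so it was not a member. No guide peak crossed an edge. H3K9me3, the trimethylation of lysine 9 of histone H3, was mapped by ChIP-seq, the sequencing of DNA recovered with an antibody, in BJ, an established human skin fibroblast line. The groups were the lines labelled sgRNA-PURPL#1 (guide 1), sgRNA-PURPL#2 (guide 2) and sgCtrl (control). All 3 lines carried CRISPR interference, which silences a gene by directing a repressor to it with a guide RNA. The gene targeted in the guide lines was PURPL, a p53-induced gene for a long non-coding RNA. Each line gave 1 H3K9me3 library and 1 input library, so no difference between lines has a replicate check, and no test across libraries was possible. Whether a line was 1 clone or a pool is not given in the sources used here, and peak lists hold no RNA from which the fibroblast identity could be checked. The sequencing depth is unknown, so a shorter peak list and a shallower library cannot be told apart.

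The label of the windows was checked against their genes. The proximal window held 20 zinc finger genes among 28 protein-coding genes and 41 annotated genes of all kinds. The distal window held 109 zinc finger genes among 224 protein-coding genes and 465 annotated genes. Zinc finger genes were recognised by their symbols (ZNF, ZSCAN, ZFP, ZIM, ZIK, ZBTB, MZF and PEG3), and their bodies took up 42% of the proximal and 36.5% of the distal window. The symbols also took in ZNF470-DT and the joint entries ZNF765-ZNF761 and ZNF816-ZNF321P, which overlap other genes of the class. A peak can therefore count for several genes where genes are counted, while summed lengths count each base once. Of the members, 79.4% lay on a zinc finger gene with guide 1, 75.0% with guide 2 and 70.2% in the control.

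The zinc finger genes of these clusters mostly encode proteins with arrays of C2H2 zinc fingers, which bind DNA, and many of them carry a KRAB domain. As background, the KRAB domain recruits TRIM28, a corepressor that brings the methyltransferase SETDB1 to chromatin, and SETDB1 writes H3K9me3. The bodies and 3′ ends of KRAB zinc finger genes are themselves known carriers of H3K9me3. ZNF274, whose gene lies in the distal window, is a zinc finger protein known to bind those 3′ ends and to bring SETDB1 there. The gene of TRIM28 lies in the distal window too.

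Most zinc finger genes of the windows with a known promoter had no peak on it, as counted further below. Of the promoters shown here, those of ZNF274, ZNF470 and ZNF404 were taken because a peak reached them. Those of ZNF544 and ZNF578 were taken because these genes belong to the window definition. The 5 promoters are therefore not a typical set. Each is the RefSeq sequence of GRCh38.p14 from 250 bases before to 50 bases after the annotated start, written 5′ to 3′ on the strand of the gene, with every CG dinucleotide in capitals.
ZNF274 (chr19:58182811-58183110, plus strand): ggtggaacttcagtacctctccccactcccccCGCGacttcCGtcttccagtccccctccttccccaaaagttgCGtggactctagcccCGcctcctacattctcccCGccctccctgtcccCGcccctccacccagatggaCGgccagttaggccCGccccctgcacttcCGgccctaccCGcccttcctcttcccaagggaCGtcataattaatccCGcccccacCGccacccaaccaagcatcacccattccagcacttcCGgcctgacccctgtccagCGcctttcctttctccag
ZNF544 (chr19:58228664-58228963, plus strand): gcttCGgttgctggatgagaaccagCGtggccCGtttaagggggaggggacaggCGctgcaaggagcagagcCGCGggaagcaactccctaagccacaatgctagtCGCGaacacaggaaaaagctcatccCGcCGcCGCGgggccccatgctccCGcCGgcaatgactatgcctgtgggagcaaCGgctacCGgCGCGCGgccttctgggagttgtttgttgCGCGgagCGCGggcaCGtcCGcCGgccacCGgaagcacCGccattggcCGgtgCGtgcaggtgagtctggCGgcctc
ZNF578 (chr19:52453303-52453602, plus strand): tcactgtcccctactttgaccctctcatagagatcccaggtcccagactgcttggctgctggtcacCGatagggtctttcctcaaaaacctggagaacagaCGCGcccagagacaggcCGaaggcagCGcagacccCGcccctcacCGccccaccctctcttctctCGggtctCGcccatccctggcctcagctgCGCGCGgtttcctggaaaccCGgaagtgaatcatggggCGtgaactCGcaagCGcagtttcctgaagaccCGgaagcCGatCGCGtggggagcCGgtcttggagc
ZNF470 (chr19:56567218-56567517, plus strand): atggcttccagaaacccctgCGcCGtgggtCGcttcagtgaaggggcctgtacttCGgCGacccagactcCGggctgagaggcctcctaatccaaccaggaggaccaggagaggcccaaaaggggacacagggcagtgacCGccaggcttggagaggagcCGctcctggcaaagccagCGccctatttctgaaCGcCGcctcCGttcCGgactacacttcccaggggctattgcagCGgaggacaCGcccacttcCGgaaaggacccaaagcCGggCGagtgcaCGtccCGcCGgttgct
ZNF404 (chr19:43883915-43884214, minus strand): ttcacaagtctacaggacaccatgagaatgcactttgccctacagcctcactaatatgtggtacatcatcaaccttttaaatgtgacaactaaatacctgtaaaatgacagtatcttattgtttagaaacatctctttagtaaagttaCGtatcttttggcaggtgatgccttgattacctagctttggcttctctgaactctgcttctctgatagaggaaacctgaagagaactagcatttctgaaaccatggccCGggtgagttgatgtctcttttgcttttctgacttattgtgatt
The promoter of ZNF274 was covered from its 5′ side by a peak of every list, over 193 bases with guide 1, 108 bases with guide 2 and 43 bases in the control. The promoters of ZNF544 and ZNF578, whose bodies held the longest control coverage of the last and the first block of the distal window, had 0 bases under peaks in all 3 lists. At ZNF470 the first 177 bases were under a guide 1 peak, against 0 with guide 2 and 0 in the control. ZNF404 was the opposite case, with 0 bases under peaks with guide 1 and 0 with guide 2, while all 300 bases lay under a control peak. It was also the poorest in CG, with 2 dinucleotides, against 16 in ZNF274, 21 each in ZNF470 and ZNF578 and 31 in ZNF544. Of the 27195 promoters in the table, 11.4% held fewer CG dinucleotides than ZNF404 and 79.5% held fewer than ZNF544. The letters TATAAA, searched on both strands, were in none of the 5, and were in 12.0% of all promoters of that length.

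In both windows the control list covered the most sequence, guide 1 less and guide 2 the least. In the proximal window, the covered length was 75.0 kb with guide 1, 29.6 kb with guide 2 and 139.8 kb in the control. That is 7.5%, 2.96% and 13.98% of the window in the same order, or 53.6% of the control length with guide 1 and 21.1% with guide 2. In the distal window, peaks covered 364 kb with guide 1, 125 kb with guide 2 and 757 kb in the control. Guide 1 kept 48.1% of the control length there and guide 2 kept 16.5%, somewhat below the shares of the proximal window. The guides' own ratio was similar in both windows, since guide 2 peaks covered 39.4% of the guide 1 length in the proximal and 34.3% in the distal window. In the plot of coverage by distance, 35 of the 67 bins of the distal window held a peak with guide 1, 29 with guide 2 and 33 in the control.

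**Figure D1:**
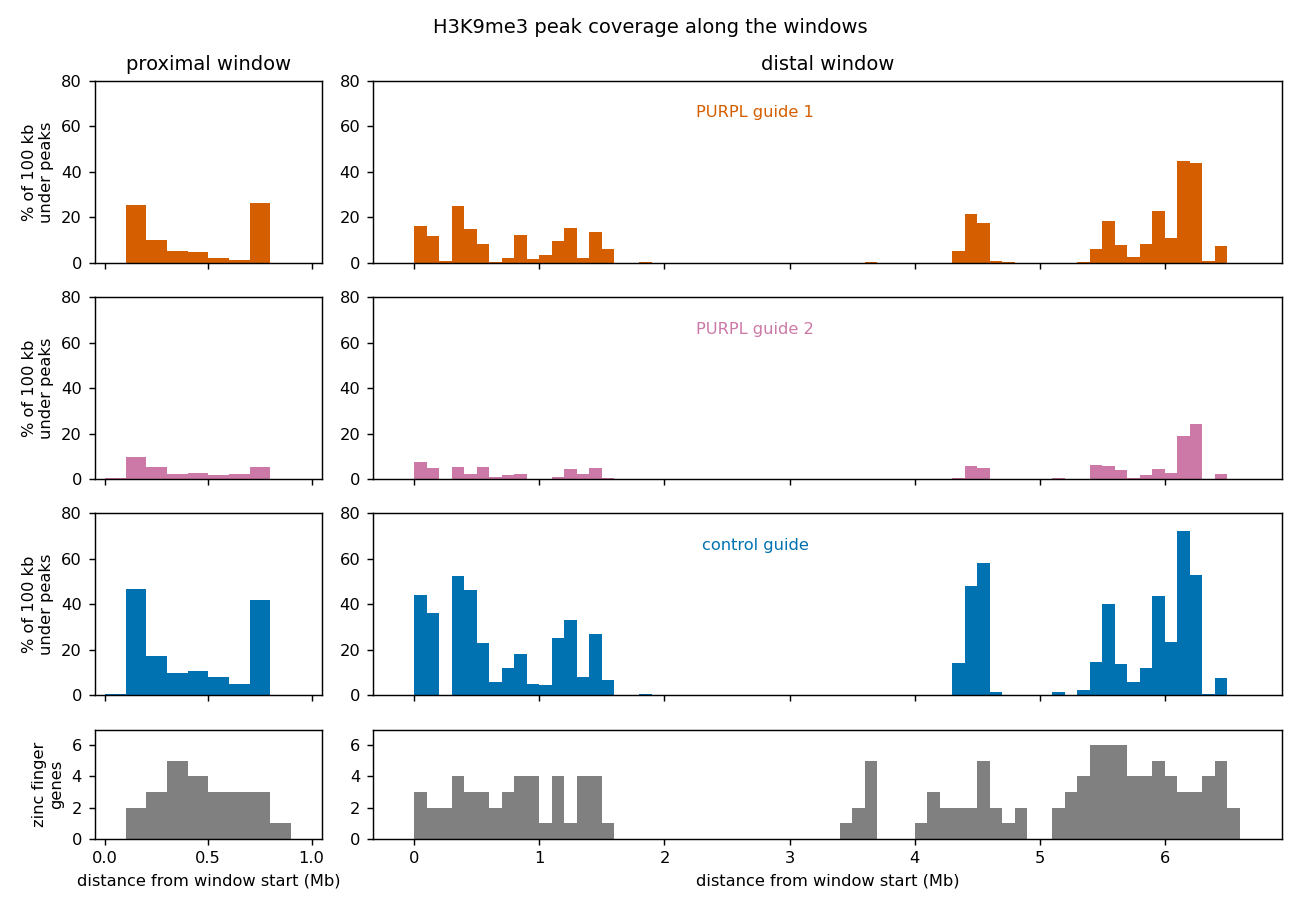
Share of each 100 kb bin under H3K9me3 peaks (y axis, %) against the distance from the start of the window (x axis, Mb) in the proximal and distal windows, with guide 1 above guide 2 and the control, and the number of zinc finger genes in each bin at the bottom. The highest bin of the distal window reached 44.8% with guide 1, 24.2% with guide 2 and 72.1% in the control, and the middle of that window was empty but for 1 short peak in each guide list.

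Peak numbers differed less than covered length. The proximal window held 36 peaks with guide 1, 25 with guide 2 and 42 in the control, and the distal window 192, 135 and 213 in that order. These counts turned with the length of the lists. When only the 11721 highest-scoring peaks of each list were kept, the distal window held 152 peaks with guide 1 and 135 with guide 2, against 100 in the control. The proximal window then held 30, 25 and 16. The covered length kept its order in that setting, at 53.9% of the control length with guide 1 and 20.5% with guide 2 in the distal window.

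The width of the peaks set the lists apart. In the distal window the median width was 1009 bp with guide 1, 606 bp with guide 2 and 1534 bp in the control. Peaks of at least 5000 bp numbered 16 with guide 1, 2 with guide 2 and 42 in the control, and in the proximal window 4, 0 and 6. These wide domains made up 34.2% of the covered length of the distal window with guide 1, 9.65% with guide 2 and 65.2% in the control. The widest guide 1 peak of the distal window, of 23385 bp, and the widest guide 2 peak, of 7012 bp, both lay inside ZNF544, while the widest control peak, of 30051 bp, lay in ZNF578. In the proximal window the widest peaks lay on 3 different genes, with 13781 bp at ZNF180 with guide 1, 2771 bp at ZNF221 with guide 2 and 23681 bp at ZNF283 in the control.

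**Figure D2:**
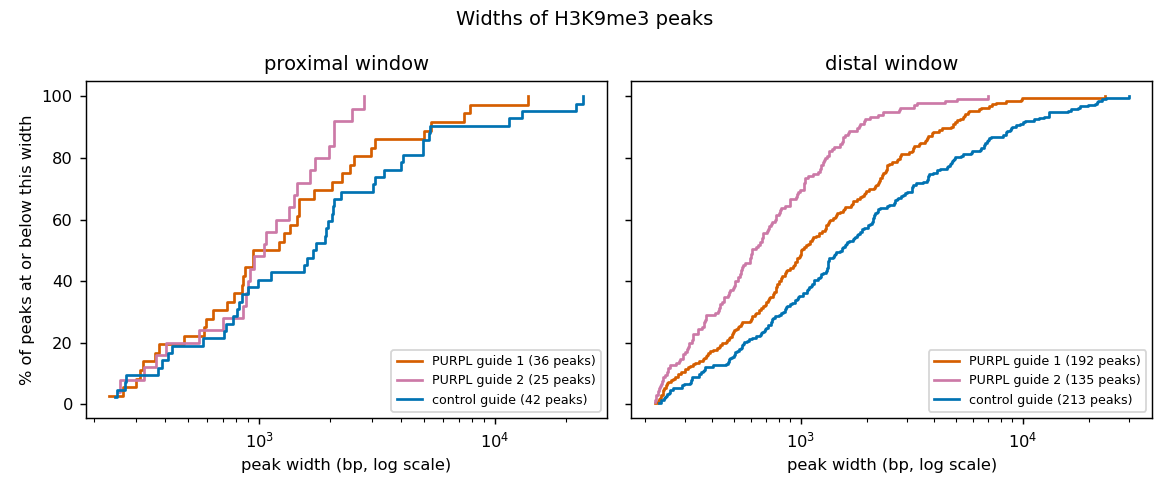
Cumulative distribution of peak widths in the proximal and distal windows, with the width in bp on a log scale (x axis) and the percentage of peaks at or below it (y axis), 1 line per list. In the distal window the medians were 1009 bp with guide 1, 606 bp with guide 2 and 1534 bp in the control.

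Wide control domains were met by guide peaks and narrow ones mostly were not. All 48 control peaks of at least 5000 bp in the 2 windows were overlapped by a guide 1 peak, and 39 of them, or 81.2%, by a guide 2 peak. Guide 1 peaks covered 54.4% of the length of these domains in 115 pieces, and guide 2 peaks covered 18% in 103 pieces. The median number of guide pieces on a domain was 2 with guide 1 and 2 with guide 2. Of the 92 control peaks under 1000 bp, 18 were overlapped by a guide 1 peak and 6 by a guide 2 peak. A wider peak offers more bases to meet, and the same shares were not computed over all control peaks. Whether this contrast is particular to the windows was therefore not tested.

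Over all widths, guide 1 peaks overlapped 47.9% of the control peaks of the distal window (95% Wilson interval 41.3 to 54.6%, counting error only) and 52.4% of those of the proximal window (37.7 to 66.6%). Guide 2 peaks overlapped 32.4% in the distal (26.5 to 38.9%) and 31.0% in the proximal window (19.1 to 46.0%). The intervals of the 2 windows overlapped for each guide. On all analysed chromosomes outside gene-free stretches, which are intervals of at least 1 Mb without an annotated gene, 81.8% of control peaks had no guide 1 peak and 90.9% had no guide 2 peak. Against that background, control peaks without a guide 1 peak made up 52.1% in the distal and 47.6% in the proximal window. With guide 2 they made up 67.6% and 69.0%. Gene-free stretches included, the background was 57.2% with guide 1 and 63.8% with guide 2, and both windows lay above the latter. In the zinc finger stretch from 36 to 38 Mb the shares were 49.4% and 66.5%. Control peaks of the windows had a median width of 1556 bp, against 667 bp on the rest outside gene-free stretches. A wider peak is met more easily at 1 bp of overlap, and the part of width was not tested. In the other direction, 17.2% of the guide 1 peaks of the distal window and 11.1% of those of the proximal window had no control peak, where the background was 43.4%. With guide 2 the shares were 8.89% and 4.00%, where the background was 41%. Gene-free stretches included, these backgrounds were 20.8% with guide 1 and 17.1% with guide 2.

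The distal window was not marked evenly, and it was divided at 54 and 56 Mb into 3 blocks. The first block, from 52 Mb, held 89 peaks with guide 1, 59 with guide 2 and 113 in the control, covering 144, 43.0 and 345 kb. The last block, to the end of the window, held 102, 75 and 100 peaks covering 219.7, 81.8 and 412 kb. Relative to the control, the last block kept more of its length than the first, with 53.3% against 41.7% under guide 1 and 19.8% against 12.5% under guide 2. The stretch from ZNF274 to ZNF544 lies in the last block and raised its shares. It held 54.6 kb with guide 1, 29.1 kb with guide 2 and 63.6 kb in the control. The blocks were not compared without it, and with 1 library per line the difference between blocks was not tested. The middle block carries the leukocyte receptor complex, the cardiac troponin I gene TNNI3 and 7 zinc finger genes. It held 1 peak with guide 1, 1 with guide 2 and 0 in the control.

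Both peaks of the middle block were short. The guide 1 peak, chr19:55635112-55635372, measured 261 bp on ZNF581. The guide 2 peak, chr19:54580748-54580974, measured 227 bp on LILRA2, a leukocyte immunoglobulin-like receptor gene. In the control the stretch without a peak ran over 2.50 Mb, chr19:53868398-56370144, and held 101 protein-coding genes, 12 of them zinc finger genes. The distal edge of the window was empty as well, with no peak over the last 174 kb with guide 1, 174 kb with guide 2 and 171 kb in the control. TRIM28 lies in that edge (gene ID 10155, chr19:58544064-58550715). It had 0 bp under peaks in all 3 lists, and its nearest peak was 108 kb away with guide 1, 108 kb with guide 2 and 105 kb in the control.

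Zinc finger genes carried almost all of the marked coding sequence. A gene is called marked when a peak overlaps its body, by at least 1 bp. In the proximal window 13 of 20 zinc finger genes were marked with guide 1, 10 with guide 2 and 16 in the control, and in the distal window 66, 48 and 70 of 109. Over the 610 zinc finger genes of the analysed chromosomes the marked share was 47.7% with guide 1, 36.7% with guide 2 and 56.4% in the control. Of the 123 other protein-coding genes of the windows, 3 (2.44%) were marked with guide 1, 5 (4.07%) with guide 2 and 4 (3.25%) in the control. Outside the windows the shares of such genes were 5.27%, 2.68% and 11.8%, so guide 2 was not below its background. For all protein-coding genes, zinc finger genes included, the shares were 6.55%, 3.73% and 13.1%. Summed over the 129 zinc finger genes of the windows, 365.2 kb lay under peaks with guide 1, 124.5 kb with guide 2 and 699.7 kb in the control. The guides thus kept 52.2% and 17.8% of the control length on these genes, and 47.2% and 19.2% on the 481 zinc finger genes elsewhere, guide 1 first.

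Gene by gene, most lengths were below the control. With guide 1, 9 of the 16 zinc finger genes marked in either list of the proximal window had at most 50% of their control length under peaks, as did 39 of 73 in the distal window, where the background over zinc finger genes was 59.4%. With guide 2 the numbers were 15 of 16 and 68 of 70, where the background was 93%. The shares with at most 50% were thus near the background of zinc finger genes for both guides. For protein-coding genes of all kinds the numbers were 9 of 16 and 41 of 77 with guide 1, against a background of 75%, and 15 of 17 and 71 of 75 with guide 2, against a background of 89%. A length of at least 2 times the control was found at 0 of 16 and 3 of 77 coding genes with guide 1, where the background was 9.53%, and at 1 of 17 and 1 of 75 with guide 2, where it was 5.49%.

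**Figure D3:**
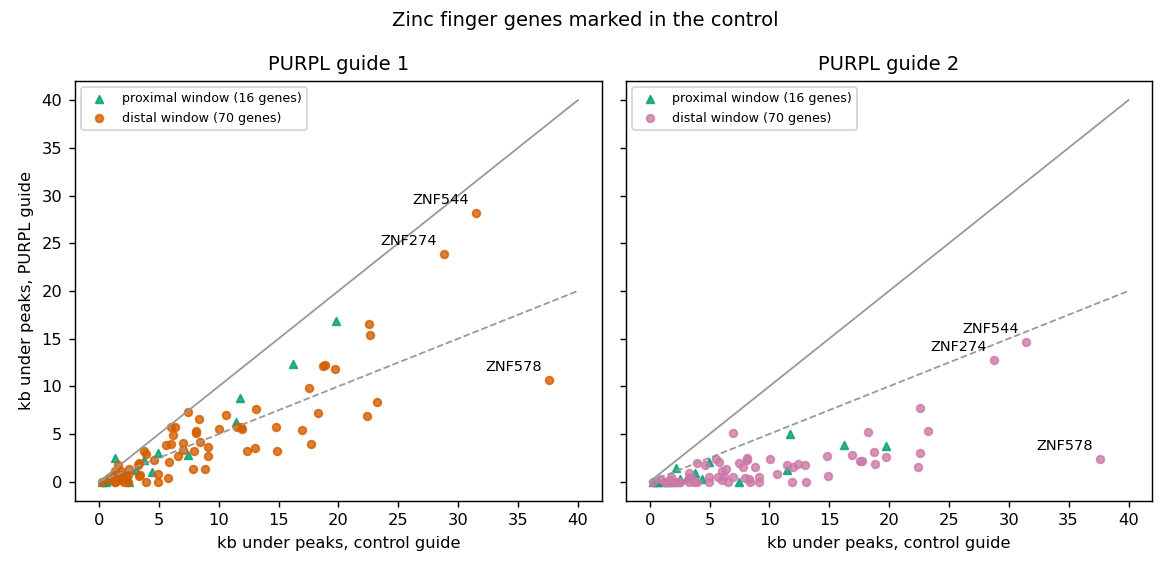
Length under H3K9me3 peaks of each zinc finger gene marked in the control, with the control length in kb on the x axis and the length with guide 1 (left panel) or guide 2 (right panel) in kb on the y axis, triangles for the proximal and circles for the distal window, a solid line of equal length and a dashed line at 50% of the control. ZNF544 and ZNF274 stood highest with either guide, while ZNF578, with the longest control length of 37.6 kb, stood far below both lines.

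The share of the control length kept by single genes spread widely. Among the 70 zinc finger genes marked in the control in the distal window, the median share was 47.5% with guide 1, from 0 to 109.9%, and 11.7% with guide 2, from 0 to 72.5%. Of these genes, 7 had no peak with guide 1 and 22 had none with guide 2. Of the 258 zinc finger genes marked in the control outside the windows, 49 and 93 had none. Among the 16 of the proximal window the medians were 38.7% with guide 1 and 10.4% with guide 2, and outside the windows, over 258 zinc finger genes, they were 42.4% and 9.64%. These genes were taken for having a control peak, so the medians are descriptions only. Coverage of at least 10 kb was held in the distal window by 8 zinc finger genes with guide 1, 2 with guide 2 and 24 in the control.

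The proximal window had its longest control coverage at ZNF180 (gene ID 7733, chr19:44474431-44500522). Peaks covered 16869 bp of it with guide 1, 3710 bp with guide 2 and 19757 bp in the control. ZNF180 was therefore close to the control with guide 1, at 85.4% of the control length, and far below it with guide 2, at 18.8%. ZNF283 had 12369 bp with guide 1, 3839 bp with guide 2 and 16216 bp in the control. ZNF221 kept the most in this window with guide 2 among genes with at least 5000 bp in the control, at 42.7%, with 8793 bp with guide 1, 5020 bp with guide 2 and 11757 bp in the control. With peaks of score 22 or more, guide 2 was at 0% at ZNF221 and 2.27% at ZNF283, and merging gave 30.7% at ZNF180, 38.5% at ZNF283 and 71.7% at ZNF221.

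ZNF404 was the gene of the proximal window most fully covered in the control, with 98.9% of its body under 1 peak that ran over the promoter shown above. Its covered length was 6219 bp with guide 1, 1215 bp with guide 2 and 11474 bp in the control. At score 22 or more it was at 0% with guide 1 and 0% with guide 2. ZNF229 had 2837 bp with guide 1, 0 bp with guide 2 and 7466 bp in the control. For guide 1 this order turned when peaks within 5000 bp were merged, to 112% of the control length. ZNF230 was the one zinc finger gene of the proximal window with a longer coverage in a guide list than in the control, with 2529 bp with guide 1, 0 bp with guide 2 and 1325 bp in the control, but merging gave 53.6% with guide 1.

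The first block of the distal window was led by ZNF578 (gene ID 147660, chr19:52453553-52516882). Peaks covered 10705 bp of it with guide 1, 2395 bp with guide 2 and 37603 bp in the control, so 28.5% of the control length was present with guide 1 and 6.37% with guide 2. The 30051 bp control peak, chr19:52459145-52489195, was the widest of either window, and each guide list held 5 peaks on the gene. In the control 59.4% of the gene body was covered, beginning downstream of the uncovered promoter. ZNF841 followed, with 8353 bp with guide 1, 5278 bp with guide 2 and 23231 bp in the control. With peaks of score 22 or more, ZNF578 was at 1.07% with guide 1 and 1.78% with guide 2, and merging gave 44.4% and 17.7%. ZNF841 was at 12.8% with guide 1 and 16.2% with guide 2 at that score.

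Other genes of the first block kept little of at least 5000 bp in the control. ZNF83 had 429 bp with guide 1, 523 bp with guide 2 and 5718 bp in the control. ZNF836 had 1375, 1585 and 8830 bp in that order, and ZNF813 had 1295, 1550 and 7829 bp. All 3 had slightly more under guide 2 than under guide 1. They were named for a low share left with guide 1, and that choice itself favours this order. Of the 67 zinc finger genes of the distal window marked with either guide, 60 had more with guide 1. ZNF28, ZNF347 and ZNF528 had coverage with guide 1, of 2719, 5787 and 4174 bp, and 0 bp with guide 2, while their control lengths were 6577, 11857 and 8397 bp. ZNF665, chosen after its values were seen, was tied with them, with 3670 bp with guide 1, 0 bp with guide 2 and 9111 bp in the control. ZNF468 stood at the other end, with 5696 bp with guide 1, 1329 bp with guide 2 and 6383 bp in the control. ZNF331, a zinc finger gene known to be imprinted, had 4942 bp with guide 1, 595 bp with guide 2 and 6184 bp in the control. With peaks of score 22 or more, ZNF83, ZNF836, ZNF28, ZNF347 and ZNF468 were at 0% with guide 1, and ZNF836, ZNF813, ZNF468 and ZNF331 at 0% with guide 2. Merging moved ZNF468 to 74.5% and ZNF331 to 50% with guide 2.

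In the last block, the longest coverage lay on neighbouring genes, ZNF274 (gene ID 10782, chr19:58183061-58213562) and ZNF544 (gene ID 27300, chr19:58228914-58277455). ZNF544 had 28187 bp under peaks with guide 1, 14602 bp with guide 2 and 31465 bp in the control. ZNF274 had 23870 bp with guide 1, 12781 bp with guide 2 and 28801 bp in the control, where the peaks covered 94.4% of the gene. In the control 2 peaks covered ZNF274, against 6 with guide 1 and 8 with guide 2, so the control peaks were the longer ones. With peaks within 5000 bp merged, ZNF274 was at 100% of the control length with guide 1 and at 100% with guide 2. With peaks of score 22 or more it was at 54.9% with guide 1 and 40.3% with guide 2, while ZNF544 was at 13.1% and 30.3%, so the order of the guides turned at ZNF544. The widest guide 1 peak there, of 23385 bp, scored 20. Over the whole stretch from the start of ZNF274 to the end of ZNF544, 94.4 kb long, peaks covered 57.9% with guide 1, 30.9% with guide 2 and 67.4% in the control. The stretch kept 85.8% of the control length with guide 1 and 45.8% with guide 2. It held 15.0% of the covered length of the distal window with guide 1, 23.3% with guide 2 and 8.40% in the control. Without it, which was examined after the values were seen, the distal window kept 44.6% with guide 1 and 13.8% with guide 2.

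Other genes of the last block varied on either side of these. ZNF606 had 15396 bp with guide 1, 2968 bp with guide 2 and 22620 bp in the control. ZNF324B and ZNF814 were close to the control with guide 1, at 97.3% and 94.9% of its length, and at 26.9% and 17.8% with guide 2. With peaks of score 22 or more, ZNF814 was at 0% with guide 1, ZNF324B at 104%, and ZNF606 at 40.4% with guide 1 and 0% with guide 2. Among coding genes with at least 5000 bp in the control, the highest share with guide 2 was at ZNF772, with 4042 bp with guide 1, 5057 bp with guide 2 and 6976 bp in the control. ZNF416, at 42.5%, came after ZNF544 and ZNF274, with 3845, 2361 and 5561 bp in that order of lists. At score 22 or more, guide 2 had 0% at ZNF772 and 6.19% at ZNF416, and merging gave 107% and 89.6%. ZSCAN18, which encodes a SCAN domain zinc finger protein, kept little, with 3175 bp with guide 1, 549 bp with guide 2 and 14883 bp in the control. ZNF470 had 7594 bp with guide 1, 0 bp with guide 2 and 13085 bp in the control. The overlapping ZNF470-DT, listed as protein-coding in RefSeq, had 3977, 2202 and 17741 bp. At score 22 or more, ZSCAN18 was at 6.16% with guide 1 and 8.43% with guide 2, and ZNF470-DT at 6.7% and 0%.

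Longer coverage with a guide than in the control was rare and short. With guide 1, ZNF766 had 992 bp, ZSCAN22 939 bp and the pseudogene ZNF702P 761 bp, against 0 bp for all 3 with guide 2 and in the control. With guide 2, LYPD5 had 557 bp and LOC112268244, a lncRNA gene that overlaps ZNF614, 545 bp, against 0 bp for both with guide 1 and in the control. The pseudogene TPM3P6, which lies within ZNF813, had 213 bp with guide 1, 1084 bp with guide 2 and 357 bp in the control. Its guide 2 value was at 0 with peaks of score 22 or more and at 50.9% of the control with 5000 bp added on each side of the gene. Each gene named here as longer with a guide held at most 1 peak in a list. The zinc finger genes ZNF614 and ZNF813 themselves were shorter with guide 2 than in the control, at 545 against 4939 bp and at 1550 against 7829 bp.

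Along the gene body, coverage was lowest near the 5′ start and mostly higher toward the 3′ end, though not always highest at the end itself. The strand was known for 109 of the 129 zinc finger genes, those matched to a RefSeq promoter, 16 in the proximal and 93 in the distal window. Each gene body was divided into 10 equal parts from 5′ to 3′. In the distal window the first part was covered to 2.00% with guide 1, 0.28% with guide 2 and 6.09% in the control, and the last part to 22%, 6.27% and 37.0%. Guide 2 was highest there in part 7, at 7.81%. In the last block of that window the control was highest in part 7, at 35.3%, against 28.1% in part 10. In the proximal window the highest part was the ninth, with 29.6% with guide 1, 17.6% with guide 2 and 39.7% in the control, while the first part had 0%, 0% and 3.37%. The last part had 19.1%, 2.78% and 33.8%. The first part of zinc finger genes elsewhere was covered to 0.76% with guide 1, 0.28% with guide 2 and 2.35% in the control, and the last part to 9.15%, 3.82% and 17.7%.

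**Figure D4:**
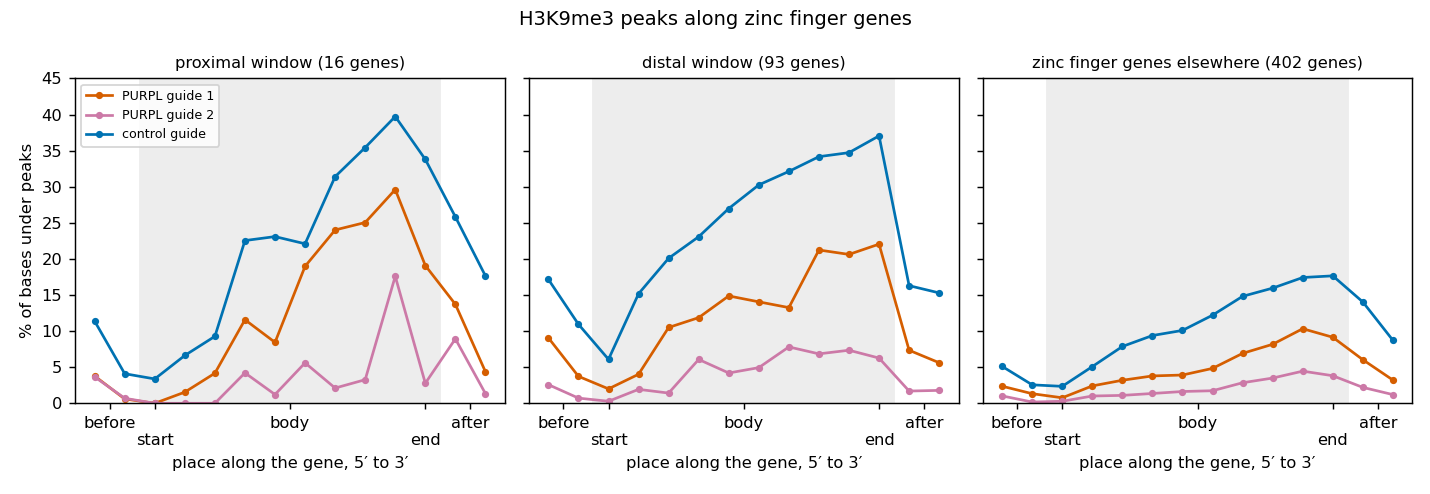
Percentage of bases under H3K9me3 peaks (y axis) along zinc finger genes of the proximal window, the distal window and elsewhere (x axis, 10 parts of the gene body from 5′ to 3′ with 5 kb before and after), 1 line per list. In the distal window coverage was lowest in the first part, at 2.00% with guide 1, 0.28% with guide 2 and 6.09% in the control, and higher toward the 3′ end.

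Gene ends were also counted, over stretches of unlike length. A peak reached the 300 bp promoter of 0 of 16 zinc finger genes of the proximal window with guide 1, 0 with guide 2 and 1 in the control, and of 2, 1 and 1 of 93 in the distal window. The last 1000 bp of the gene were under a peak at 5, 3 and 7 of the 16 genes and at 20, 8 and 32 of the 93, in the same order of lists. The last 1000 bp offer more bases to meet than the 300 bp promoter, which lies mostly before the gene. The 2 counts are therefore not a like comparison, and zinc finger genes elsewhere were not counted this way. Zinc finger genes under a control peak had a median length of 22.9 kb (86 genes), against 13.2 kb for those without one (43 genes). Their promoters held a median of 22 CG dinucleotides, against 23. Longer genes offer more bases for a peak to meet, and the part of length in being marked was not tested.

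The other gene families of the windows held few peaks. Outside the windows 5.27% of coding genes other than zinc finger genes were marked with guide 1, 2.68% with guide 2 and 11.8% in the control. At such shares a list of 9 genes or fewer can hold no marked gene, so its 0 says little about the family. The leukocyte receptor complex, whose LILR and KIR genes encode immune receptors of blood cells, had 0 of 30 genes marked with guide 1, 1 with guide 2 and 0 in the control. The 9 NLRP genes, which encode innate sensors and oocyte proteins, the 3 vomeronasal receptor genes and the 3 ribosomal protein genes had 0 bp under peaks in all 3 lists. So did the 65 microRNA genes, and outside the windows the marked share of microRNA genes was 0.271% with guide 1, 0.325% with guide 2 and 0.108% in the control, near the same. Of the 65, 46 form the imprinted C19MC cluster, which is active in placenta, and the nearest peaks to it were 85.2 kb away with guide 1, 86.4 kb with guide 2 and 85.8 kb in the control. A list of 7 chromatin and ubiquitin-like genes with TRIM28 and KMT5C, a methyltransferase gene for histone H4, had 0 bp too, as did 4 CEACAM-region genes and the 2 contractile genes TNNT1 and TNNI3. PEG3, an imprinted zinc finger gene expressed from the paternal copy, had no peak, and the nearest was 64.7 kb away with guide 1, 252.9 kb with guide 2 and 193.3 kb in the control.

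Few coding genes outside the zinc finger class were marked, and 2 of them held long coverage. C19orf18 had 4516 bp with guide 1, 838 bp with guide 2 and 9335 bp in the control. LOC124904792 had 5541, 2746 and 10418 bp in that order. The rest were short. MYADM had 483, 224 and 372 bp, and ERVV-2, an endogenous retroviral envelope gene, had 0 bp with guide 1, 0 bp with guide 2 and 322 bp in the control.

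The windows were set beside other stretches of chromosome 19 with many zinc finger genes. In the long-arm stretch, from 36 to 38 Mb, guide 1 kept 50.5% of the control length and guide 2 kept 21.1%, close to the values of both windows. In the short-arm stretch 1, from 9 to 13 Mb, the shares were 47.2% and 20.0%. In the short-arm stretch 2, from 20 to 24 Mb, they were lower, at 34.7% with guide 1 and 9% with guide 2. On all analysed chromosomes outside the gene-free stretches and outside the windows, guide 1 kept 32.7% and guide 2 kept 13.8%. The windows thus held a higher share of the control length than that background with guide 1. With guide 2 the distal window was at the same 13.8% without the stretch from ZNF274 to ZNF544, and its first block, at 12.5%, lay below the background. Over all of chromosomes 1 to 22 and X, gene-free stretches included, the shares were 52.4% with guide 1 and 40.3% with guide 2, so the windows lay well below that value with guide 2. None of these differences could be tested with 1 library per line.

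**Figure D5:**
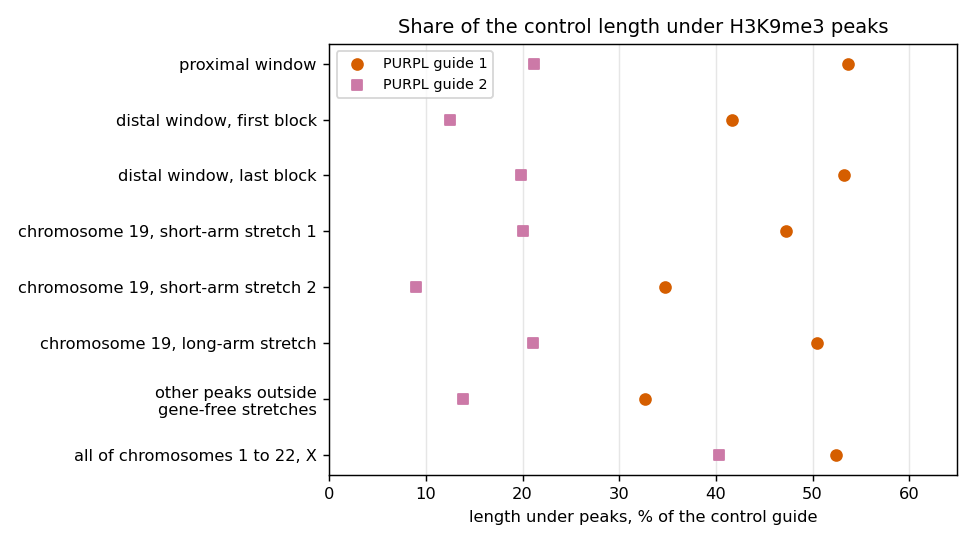
Length under H3K9me3 peaks as a percentage of the control length (x axis) for guide 1 (circles) and guide 2 (squares) in the proximal window, the first and last blocks of the distal window and the comparison regions (y axis). Guide 1 kept 53.6%, 41.7% and 53.3% in the proximal window and the 2 blocks, and guide 2 kept 21.1%, 12.5% and 19.8%.

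The median scores of the members lay below those of their whole lists, and at or slightly above those of peaks outside gene-free stretches. The authors gave each peak a score on a scale that the sources used here do not state, and it was read within a list, and across lists only as a common lower limit in 1 alternative. The median score in the distal window was 19 with guide 1, 19 with guide 2 and 20 in the control, where the medians of the whole lists were 22, 22 and 21. In the proximal window the medians were 20 with guide 1, 18 with guide 2 and 18 in the control. On the rest of the analysed chromosomes outside gene-free stretches they were 17, 18 and 17. The highest member of the distal window scored 64 with guide 1 (on ZNF667), 34 with guide 2 (on ZNF324B and ZNF132) and 45 in the control (on ZNF160). The highest scores of the whole lists were 4904, 2678 and 6585. The zinc finger clusters thus held none of the highest-scoring peaks of any list.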

How the data were processed

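H3K9me3 ChIP-seq peak lists of 3 BJ lines, 1 list per line, were analysed, and the 3 input libraries entered only through the authors' peak calling. The deposited lists give a position and a score per peak, and the score is the authors' value, a whole number of at least 10 on a scale that the sources used here do not state. The submitters' processing notes name MACS2 2.2.9.1, Bowtie2 2.4.2, deepTools 3.5.1 and GATK, and the builds hg38 and GRCh38.p13. Neither calling settings nor depth were found in these sources. Guide names within the peak names differ from those of the labels, and the labels were followed.

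Peaks on chromosomes 1 to 22 and X were kept. Peaks belonged to a window by their midpoint, as did genes, and a base under several peaks of 1 list counted once. Overlap needed at least 1 bp. Gene positions and promoters came from RefSeq tables of GRCh38.p14, whose chromosomes share the coordinates of GRCh38.p13. The gene table has no exons, so exonic and intronic places were not used here. Named genes were the 3 genes of the window definition with TRIM28, those with the longest control coverage per window, those with at least 5000 bp in the control and the highest or lowest share left, those at least 500 bp longer with a guide, and up to 2 per gene list, with ties taken by symbol. 1 of the gene lists is not reported here. Peaks were named as the widest and the highest-scoring per window and list. Genes marked outside the zinc finger class, ZNF581, LILRA2 and the distances to PEG3 and C19MC were chosen after their values were seen. The windows, gene lists and alternatives were chosen with earlier results of these data known. Shares carry 95% Wilson intervals, for counting error only. Scripts ran in Python 3.11.15 with pandas 2.3.3, numpy 2.4.6, matplotlib 3.10.9 and scipy 1.17.1. The overlap method was tested on a random part of the control peaks of the distal window.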

Additional observations from a re-analysis of the deposited data

How the results depend on the processing

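Changes of region, gene flank or stretch (any overlap with the window, 5000 bp added to genes, and the distal window without the stretch from ZNF274 to ZNF544, added after the data were seen) moved none of the counts of genes and peaks, lengths or overlaps of the windows by more than the limits used. No paired analysis was possible because each line had 1 library. With peaks of score 22 or more, the pooled median, the proximal window held 14 peaks with guide 1, 9 with guide 2 and 15 in the control, and the distal window 68, 41 and 90. The length kept was then 8.07% with guide 2 in the proximal window, and 29.5% with guide 1 and 8.22% with guide 2 in the distal window. The share of control peaks overlapped by guide 1 in the proximal window was 33.3%, guide peaks without a control peak there were 28.6% with guide 1 and 0% with guide 2, and marked coding genes numbered 7, 5 and 10 there, and 44 with guide 1 and 26 with guide 2 in the distal window. TPM3P6 turned to 0% with guide 2 in this setting, and to 50.9% with 5000 bp added on each side. With the same number of peaks from each list, the control held 16 and 100 peaks. Control peaks overlapped were then 68.8% with guide 1 and 50% with guide 2 in the proximal window, and 59% and 53% in the distal window. Guide peaks without a control peak were 30% and 24% in the proximal window, and 32.2% and 20.7% in the distal window. Merging peaks within 5000 bp gave 14, 16 and 20 regions in the proximal and 87, 74 and 76 in the distal window, so guide 1 was above the control there. It gave a length kept of 26.7% with guide 2 in the distal window, and overlapped shares of 55% with guide 2 in the proximal window and of 75% with guide 1 and 53.9% with guide 2 in the distal window. ZNF229 turned to 112% with guide 1 when merged. Asking for 50% of a peak to be covered gave overlapped shares of 21.4% with guide 1 and 2.38% with guide 2 in the proximal window, and 20.2% and 3.76% in the distal window. Guide peaks without a control peak were then 27.1% and 17.0% in the distal window. Of the values of named genes, 31 moved and 18 did not with peaks of score 22 or more, and 17 moved and 36 did not when peaks were merged. The cause of these shifts was not tested. The unknown depth limits every count and length, and no replicate bounds any difference.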

Other observations

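Genes without a protein product held coverage too. Of 76 lncRNA genes in the distal window, 14 were marked with guide 1, 8 with guide 2 and 17 in the control, and of 97 pseudogenes 12, 7 and 17. Many of those marked in the control overlap a zinc finger gene, so the same peaks can count in both classes. The shares were not computed without such genes. Outside the windows the marked shares of lncRNA genes were 2.4% with guide 1, 1.11% with guide 2 and 6.39% in the control, and of pseudogenes 0.880%, 0.477% and 1.64%. ZNF8-DT, a lncRNA gene that overlaps ZNF544, had 15813 bp under peaks with guide 1, 11612 bp with guide 2 and 16663 bp in the control. LOC124904784, a lncRNA gene upstream of ZNF274 that overlaps no zinc finger gene, had 5475, 2044 and 13771 bp in that order. The pseudogene ZNF542P had 4843 bp with guide 1, 276 bp with guide 2 and 8621 bp in the control. VN2R19P, a vomeronasal receptor pseudogene, had 0 bp with guide 1, 1337 bp with guide 2 and 2309 bp in the control. These genes were chosen after their values were seen.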
